A study of Mus musculus with 22 samples.

Results

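Fibroblast growth factors (FGFs) and their receptors were followed in FE1 cells, a lung epithelial line from the transgenic MutaMouse, after exposure to Mitsui7, a multi-walled carbon nanotube. The group held 5 ligands (Fgf1, Fgf2, Fgf7, Fgf10 and Fgf21) and 4 receptors (Fgfr1, Fgfr2, Fgfr3 and Fgfr4). A probe belonged to the group when the transcript accession of its spot carried one of these names, which gave 15 of 55681 probes and 9 of 20018 named genes. All 9 genes had a probe on the array, 4 genes with 1 probe, 4 genes with 2 probes and Fgfr1 with 3 probes. Where a gene had more than 1 probe, the brightest one stands for it and the others follow.

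FGFs are secreted proteins that act on neighbouring cells through 4 receptor tyrosine kinases, and heparan sulfate on the cell surface helps most of them to bind. A bound receptor signals through adaptor proteins and the ERK kinases, which switch on feedback genes such as Dusp6 and the Etv transcription factors. In the lung, Fgf7 and Fgf10 are known as mesenchymal signals to the epithelium, read mainly through Fgfr2. Fgf21 differs from the others in that it circulates as a hormone, needs the co-receptor beta-Klotho (Klb), and is a known target of the stress transcription factor ATF4.

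The question was which of these genes responded to the nanotubes and whether the dose mattered. Cells received 0 (control), 12.5 (low dose), 25 (medium dose) or 100 µg/ml (high dose) of Mitsui7 for 24 h, in 5, 6, 5 and 6 arrays respectively, 22 in all. Every group was the same single cell line in the same medium with low serum and added epidermal growth factor, so each comparison concerns 1 line under growth factor supply. On every array the cell RNA was read in Cy5 and a commercial pool of RNA from 11 mouse cell lines in Cy3, with no dye swap, and a value below is the log2 ratio of cells to pool for that probe.

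Between 23688 and 39139 probes per array lay above the negative controls, and the arrays lay on 5 slides, a term in the model. After adjustment for slide and centring of each probe over the 22 arrays, each array was correlated with the rest of its own group. On this measure low dose replicate 1 and medium dose replicate 2 stood apart, at means of -0.164 and -0.17. The other 20 arrays gave 0.0114 to 0.586, with low and medium dose arrays no higher than 0.114. Without centring or slide adjustment, medium dose replicate 2 (0.864) lay inside its group's range of 0.857 to 0.897. Low dose replicate 1 (0.785) was then lowest in its group, and control replicate 5 (0.781) lowest of all. Of 6 epithelial markers 4 were detected in 4 or more arrays of every group. E-cadherin (Cdh1) was detected on 0 arrays, Epcam on 10 and the tight junction gene Cldn4 on 16, and the keratins Krt8, Krt18 and Krt19 were detected on 21 or 22 arrays at control ratios of -4.35 to -5.62. Of 7 alveolar and club cell markers 3 were so detected in control cells, and 4 at the high dose. Lamp3 was detected on 22 arrays, the club cell gene Scgb1a1 on 21, the surfactant genes Sftpc on 17, Sftpd on 16, Sftpb on 3 and Sftpa1 on 0, and the lung factor Nkx2-1 on 0. Lamp3 was called higher at the medium and high doses (0.75 and 0.90). All 9 mesenchymal markers, among them Vim and Col1a1, were detected on all 22 arrays. Among endothelial markers Tek was detected on 0 arrays, Cdh5 on 1, Pecam1 on 21 and Kdr on 22. Of the leukocyte markers, Itgam and Cd3e were detected on 22 arrays and Ptprc on 21. In bulk RNA, fewer cells of a type and less RNA per cell cannot be told apart.

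At each dose 2 genes of the group were called changed against control, Fgf21 upward and Fgf1 downward, and none of the receptors was. A gene was called changed at an adjusted p of at most 0.05 and a fold of 1.5 or more, and only if 4 or more arrays of one of the groups compared detected it. Of the 9 members 9 could be tested at the low dose and 8 at the medium and high doses, Fgf2 lacking detection. Over all probes that could be tested, 3.26% changed at the low dose, 5.61% at the medium dose and 7.55% at the high dose. By direction, 1.32%, 2.68% and 3.32% of probes were higher and 1.93%, 2.92% and 4.23% were lower. These shares count probes, and only 47.4% of all probes on the array carry a gene name. A share over named genes was not computed. The median log2 change of the members was 0.12, 0.07 and -0.05 at the 3 doses, against 0.01 over all probes each time.

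Fgf21 is shown with its promoter because it rose the most and because a letter pattern for stress transcription factors lies there. The pattern TGATGNAAT, the composite site read by ATF4 with its C/EBP partners, was searched on both strands in the 250 bases before each transcription start. It was in 0.816% of 32851 promoters (268 promoters). Promoters were listed for 7 of the 9 members, and Fgf21 was the only one of these 7 genes to hold it. The sequence below comes from RefSeq for GRCm38.p6, at chr7:45615491-45615740 on the minus strand, read in the direction of transcription, with the match in capitals.

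Fgf21 promoter: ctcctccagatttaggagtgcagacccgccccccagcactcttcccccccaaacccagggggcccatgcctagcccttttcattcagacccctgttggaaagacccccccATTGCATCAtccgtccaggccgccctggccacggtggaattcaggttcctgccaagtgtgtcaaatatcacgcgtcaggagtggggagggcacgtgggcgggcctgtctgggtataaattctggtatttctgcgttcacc

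The match lies on the strand opposite to the gene and begins at position -140 from the annotated start. It describes letters in the reference and is not evidence that a factor was bound in these cells. Of 8 stress genes known to be regulated with Fgf21, listed further on, 0 held the pattern in the same window. Searched in the same way, the AP-1 pattern TGANTCA was in 6.75% of promoters and the ETS pattern CCGGAAGT in 2.88%, and neither was in the Fgf21 window.

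Fgf21 rose 2.97- to 3.49-fold at the 3 doses. Its log2 ratios in the 5 control arrays were -0.20, -0.62, -0.73, -0.42 and -0.34 (mean -0.46 ± 0.21 SD). At the low dose they were 1.41, 1.19, 1.64, 1.5, 0.98 and 1.13 (mean 1.31 ± 0.25 SD, n = 6). All control values lay below 0 and all low dose values at 0.98 or above, with no overlap. At the medium dose the values were 1.26, 1.23, 1.08, 1.12 and 1.27 (mean 1.19 ± 0.08 SD, n = 5). At the high dose they were 1.75, 0.67, 1.13, 0.72, 1.06 and 1.13 (mean 1.08 ± 0.39 SD, n = 6). Every exposed array was thus above every control array, and the high dose had the widest spread, with replicate 1 high and replicates 2 and 4 low.

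With slide in the model, the log2 change of Fgf21 was 1.80 ± 0.16 (SE) at the low dose, a 3.49-fold rise (limma, adjusted p = 1.37e-06). It was 1.65 ± 0.17 at the medium dose (3.15-fold, adjusted p = 2.96e-06). It was 1.57 ± 0.16 at the high dose (2.97-fold, adjusted p = 1.8e-06). The order of the means, low above medium above high, was within error: high against low dose gave -0.23 with a 95% interval of -0.55 to 0.09 (adjusted p = 0.76). Medium against low dose gave -0.15 (interval -0.49 to 0.19) and high against medium dose -0.08 (interval -0.42 to 0.26). No further rise was thus resolved above 12.5 µg/ml. Within single slides the low dose rise was 1.46 to 2.37, the medium dose rise 1.55 to 1.81 and the high dose rise 1.14 to 1.86.

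The control level of Fgf21 was close to the background of the arrays. The probe was detected on 3 of 5 control arrays and scored well above background by the scanner on 2 of them, against all 17 exposed arrays. Signals were taken without background subtraction. The ratio of the scanner software has its own background subtraction and dye normalisation. It gave larger changes of 2.84, 2.65 and 2.56 from the lowest to the highest dose. Normexp background correction, with an offset of 50 added to both channels, gave smaller ones of 1.65, 1.53 and 1.43. Fgf21 was called at each dose with both settings, so the size of the rise differed between them and its call did not. The part of the offset in the smaller changes was not tested.

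**Figure D1:**
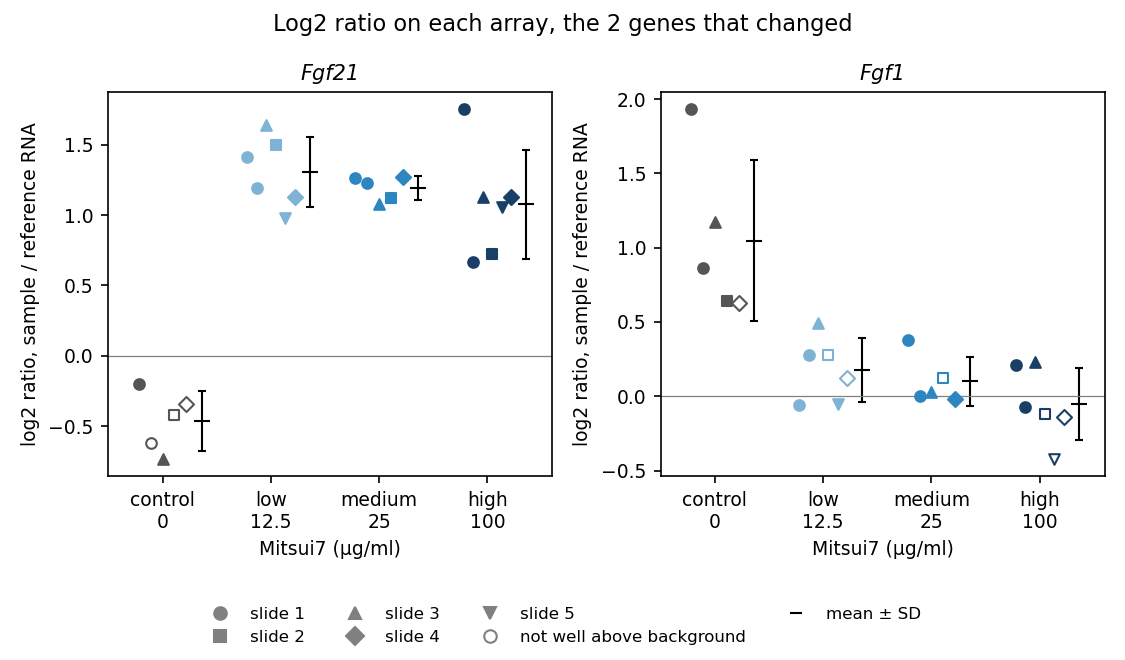
Log2 ratio of cells to reference RNA on each array for Fgf21 (left) and Fgf1 (right) by Mitsui7 dose in µg/ml. Points are arrays with the shape giving the slide, open points are not well above background, and bars are mean ± SD. All 17 exposed arrays lay above the 5 control arrays for Fgf21 and below them for Fgf1.

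Fgf1, an acidic FGF without a classical secretion signal that binds all FGF receptors, fell 1.75- to 2.05-fold. Its log2 ratios were 1.93, 0.86, 1.17, 0.64 and 0.63 in control arrays (mean 1.05 ± 0.54 SD, n = 5). At the low dose they were -0.06, 0.28, 0.49, 0.28, -0.05 and 0.12 (mean 0.18 ± 0.21 SD, n = 6). The lowest control value, 0.63, was above the highest low dose value, 0.49, so the groups did not overlap but came close. The medium dose arrays gave 0.38, 0.00, 0.03, 0.12 and -0.02 (mean 0.10 ± 0.16 SD, n = 5). The high dose arrays gave 0.21, -0.07, 0.23, -0.12, -0.42 and -0.14 (mean -0.05 ± 0.24 SD, n = 6). All 17 exposed arrays were below all 5 controls, and control replicate 1 stood high above its group.

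The log2 change of Fgf1 was -0.81 ± 0.17 (SE) at the low dose, 1.75-fold lower (limma, adjusted p = 0.00694). It was -0.94 ± 0.17 at the medium dose (1.92-fold lower, adjusted p = 0.00141) and -1.04 ± 0.17 at the high dose (2.05-fold lower, adjusted p = 0.000268). The means fell in the order of dose, but high against low dose differed by only -0.23 (95% interval -0.55 to 0.10, adjusted p = 0.77), so a step between doses was not resolved. Without control replicate 1 the changes were -0.59, -0.72 and -0.82 and were still called. Within single slides the low dose change ran from -1.28 to -0.36, the medium dose change from -1.20 to -0.52 and the high dose change from -1.32 to -0.76. The low dose call was lost without the 8 arrays of slide 1 (change -0.51, adjusted p = 0.0499, under 1.5-fold).

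Fgf1 was also a dim probe. It was detected on all 22 arrays and well above background on 4 of 5 control, 4 of 6 low dose, 4 of 5 medium dose and 3 of 6 high dose arrays. The ratio of the scanner software gave -1.13, -1.54 and -1.68 at the 3 doses. The second Fgf1 probe was above the negative controls on 1 array alone, a control, and so gives no independent measure of the fall. Its log2 changes were -0.15, -0.12 and -0.13.

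Genes known to mark mesenchymal cells fell with Fgf1. Of 9 such markers 5 were lower at the low dose and 6 at the medium and high doses, with median log2 changes of -0.77, -1.08 and -1.34. Over all tested probes 1.93%, 2.92% and 4.23% were lower. At the high dose the collagen genes Col1a1, Col1a2 and Col3a1 changed by -1.34, -1.52 and -1.70, the platelet-derived growth factor receptor Pdgfra by -1.53 and decorin (Dcn) by -2.27. Vim, Zeb1 and Cdh2 were not called at any dose. In log2 ratios all 6 high dose arrays lay below all controls for Col1a1, Col1a2, Col3a1, Pdgfra, Pdgfrb and Dcn. The log2 of the summed raw Cy5 signals of the 9 markers was 17.02 to 19.38 in control arrays. In high dose arrays it was 16.92 to 18.38, which overlaps. That sum carries no normalization or slide term, so its overlap cannot show whether the markers fell. Epithelial markers gave 0 of 4 tested genes called at each dose. The part of these cell markers in the Fgf1 result was not tested.

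The remaining ligands did not pass. Fgf7, the keratinocyte growth factor, was a bright probe, well above background on all 22 arrays, and its control ratio was 0.12 ± 0.39 (SD, n = 5, range -0.34 to 0.73). At the high dose the lowest, median and highest ratios were 0.05, 0.35 and 1.15, inside the control range but for 1 array. Its changes were 0.28, 0.25 and 0.39 at the 3 doses, the last with an interval of 0.11 to 0.67 and an adjusted p of 0.0911. This was the lowest adjusted p among the 7 members that were not called, and on the 4 slides with controls the high dose difference was 0.22 to 0.49.

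Fgf10, the ligand that drives branching of the developing lung, had a control ratio of 2.15 ± 0.22 (SD, n = 5), above the pool, and was well above background on all 22 arrays. The high dose arrays had a mean of 2.11 ± 0.21 (n = 6). Its changes of 0.12, 0.11 and -0.04 had intervals within -0.25 and 0.33, which a 1.5-fold change lies outside of. Fgf2, the basic FGF, was too dim to judge, with detection on 3 of 5 control arrays and a signal well above background on only 1 control array and 0 exposed arrays. Its changes were -0.04, -0.13 and -0.14, and it did not reach the detection limit needed for a test at the medium and high doses.

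**Figure D2:**
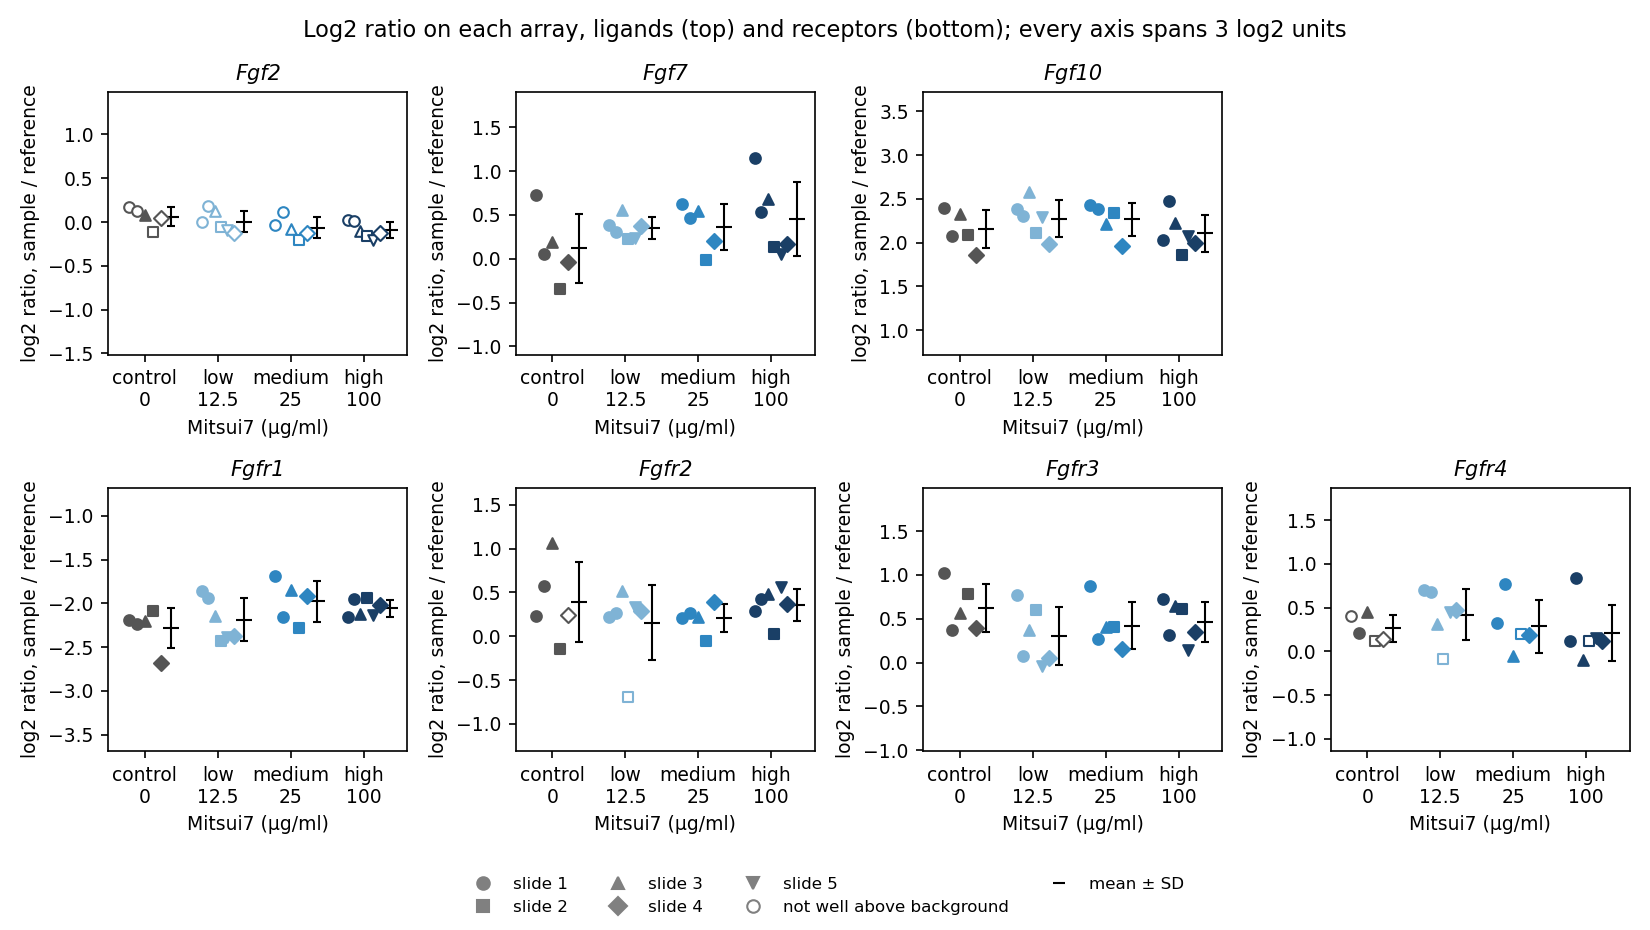
Log2 ratio of cells to reference RNA on each array for the 3 ligands and 4 receptors that were not called, by Mitsui7 dose in µg/ml. Points are arrays with the shape giving the slide, open points are not well above background, bars are mean ± SD, and each vertical axis spans 3 log2 units. Exposed and control arrays overlap in all 7 genes, and the Fgf2 points are almost all open.

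None of the 4 receptors was called at any dose. The brightest Fgfr1 probe was well above background on all 22 arrays, with a control ratio of -2.28 ± 0.23 (SD, n = 5), below the pool. Its exposed means were -2.19 ± 0.24, -1.97 ± 0.24 and -2.05 ± 0.10. The changes were 0.12, 0.31 and 0.25, with the medium dose interval running from 0.05 to 0.56 (adjusted p = 0.211). The other Fgfr1 probes did not share this sign throughout. One gave -0.12, -0.12 and -0.14, the other 0.28, -0.10 and -0.05. The upward values were thus seen at every dose with 1 of 3 probes.

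Fgfr2, whose epithelial form is the receptor for Fgf7 and Fgf10, had a control ratio of 0.39 ± 0.45 and exposed means of 0.15 ± 0.43, 0.21 ± 0.16 and 0.36 ± 0.18. Its changes were -0.27, -0.18 and -0.07 and those of its second probe -0.06, -0.14 and -0.09. Fgfr3 had a control ratio of 0.62 ± 0.27 and exposed means of 0.30 ± 0.33, 0.42 ± 0.27 and 0.46 ± 0.23. Its changes of -0.25, -0.20 and -0.10 were not matched by its second probe, which gave 0.08, -0.03 and 0.16. Both genes were thus nominally lower by the brightest probe, by less than 1.5-fold and without passing the test.

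Fgfr4, which with Klb serves hormone-like FGFs in liver, was dim. The scanner scored its brightest probe well above background on 2 of the 5 controls and on 5 of 6, 4 of 5 and 5 of 6 exposed arrays, with a control ratio of 0.26 ± 0.15. The changes were 0.16, 0.02 and -0.05, and its second probe was detected on 0 arrays. Over the 7 genes that were not called, the 21 changes against control ran from -0.27 to 0.39, with 4 of 21 at an unadjusted p of at most 0.05, and the 95% intervals lay between -0.54 and 0.67. In no dose group did all arrays of such a gene lie above or below all controls.

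**Figure D3:**
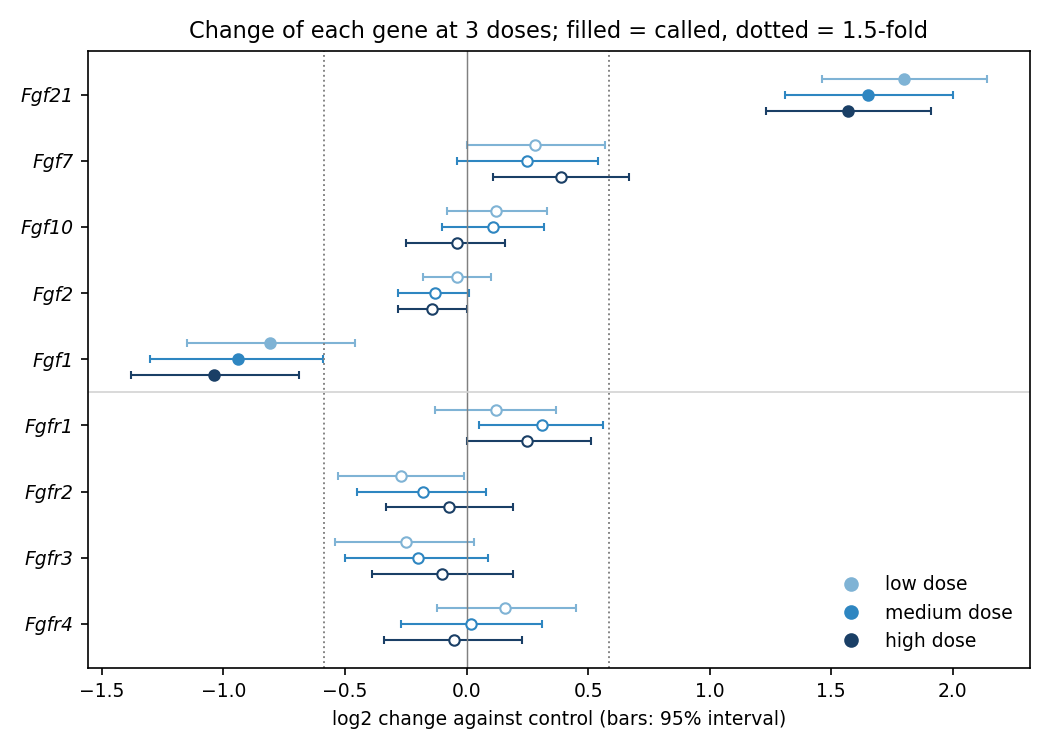
Log2 change against control for the 9 genes at the low, medium and high dose, with ligands above the grey line and receptors below it. Points are limma estimates from 22 arrays, bars are 95% intervals, filled points were called and dotted lines mark 1.5-fold. Only the Fgf21 and Fgf1 points are filled, and all others lie between -0.27 and 0.39.

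Between doses 0 of the 9 genes were called. Over all probes that could be tested, 0.248% differed between the high and low dose, and 0% (0 of 32613 probes) and 0% (0 of 31536) in the other pairs, where 1647 and 2303 probes had an unadjusted p under 0.05. Among the 27 member comparisons between doses the largest change was 0.23 in size, the lowest unadjusted p was 0.0872, and the lowest adjusted p was 0.683. A p above the threshold does not show that the doses acted alike.

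**Figure D4:**
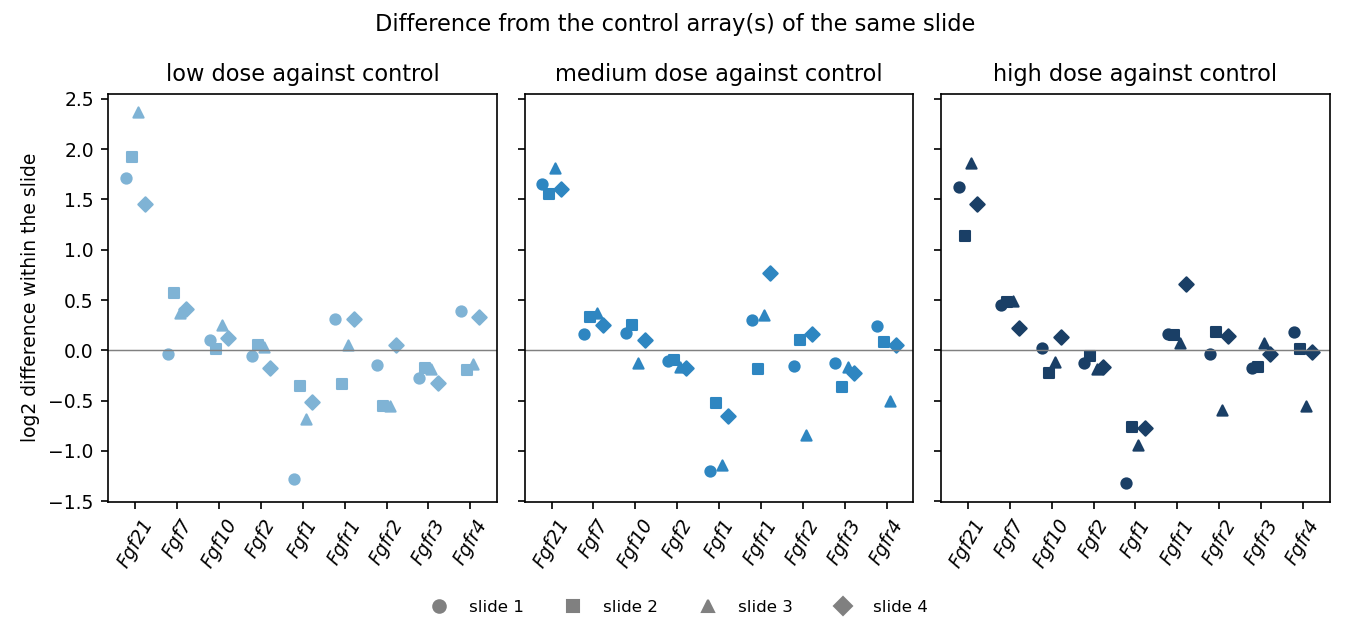
Log2 difference between a dose group and the control arrays of the same slide, for the 9 genes at 3 doses, with the shape giving the slide. On slide 1 each point is a mean of 2 arrays per group, on slides 2 to 4 it is 1 array against 1, and slide 5 held no control. Fgf21 lies between 1.14 and 2.37 and Fgf1 between -1.32 and -0.36 on every slide.

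Of 13 further secreted FGFs, 5 could be tested at the low dose and 4 at the medium and high doses, and 1, 2 and 2 of these fell. Beside this count and those of the lists that follow stand 3.26%, 5.61% and 7.55% of all tested probes called. Those shares are per probe, while the lists count genes. Fgf18, a ligand known from bone and lung development, fell at every dose. Its control ratios ran from 1.77 to 2.41 (median 1.98), its low dose ratios from 0.47 to 0.89 (median 0.68) and its high dose ratios from -0.23 to 0.59 (median 0.03). All exposed arrays lay below all controls, with changes of -1.35 ± 0.15, -1.54 ± 0.16 and -1.89 ± 0.15 (SE) and adjusted p = 1.78e-05, 2.99e-06 and 7.35e-08.

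A second Fgf18 probe gave -1.41, -1.51 and -2.00, and by that probe the high dose was also below the low dose (-0.60, adjusted p = 0.00991). Fgf9, an epithelial and mesothelial ligand of the lung, changed by -0.68, -0.81 and -0.82, called at the medium and high doses (adjusted p = 0.0299 and 0.0163). The high dose call was lost when control replicate 1, control replicate 4 or high dose replicate 4 was left out (changes of -0.75 to -0.69). The medium dose call was lost without control replicate 1, 3 or 4 or medium dose replicate 2, 3 or 4 (-0.84 to -0.64). Over 39 alternatives in all, Fgf9 was called in 24 at the medium dose and 32 at the high dose, and with replicate number in place of slide it was also called at the low dose (-0.61). No tested ligand of the list rose, and the intracellular FGF homologous factors gave 0 called of 2, 2 and 3 tested. Mesenchymal markers fell in the same arrays, and their part in the Fgf18 and Fgf9 results was not tested.

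Among 8 co-receptors and binding proteins, 7, 6 and 6 could be tested, and Flrt1 was called at the medium dose (-0.64) and Flrt2 at the high dose (-0.60), both membrane proteins that bind FGF receptors. Leaving out single arrays took Flrt1 (control replicate 1 or medium dose replicate 1, change -0.57) and Flrt2 (control replicate 2 or high dose replicate 2 or 4, -0.56 to -0.55) just under 1.5-fold. A second, less bright Flrt1 probe was called at all 3 doses, at -0.71, -0.73 and -0.98. Klb was detected on 21 of 22 arrays and not called at any dose.

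Heparan sulfate genes gave 1 higher and 1 lower of 17 tested genes at each dose. Glce, the epimerase that converts glucuronic to iduronic acid in the heparan sulfate chain, rose by 0.94, 1.11 and 1.19 (adjusted p = 0.000102, 1.23e-05 and 1.84e-06). The syndecan Sdc2, a heparan sulfate core protein, was lower at the medium and high doses (-0.85 and -0.93), and the sulfotransferase Hs6st1 at the low dose (-0.75). In Sdc2, control replicate 5 stood high at -0.07, and without it the high dose change was -0.59, still called. The medium dose call of Sdc2 was lost without control replicate 3 or 5 or medium dose replicate 5 (-0.86 to -0.51), and that of Hs6st1 without control replicate 2 or 3 (-0.69 to -0.66). Flrt1, Hs6st1, Etv4 and Atf4 fall outside the rule for named genes and were named after their values were seen. List genes named as not called, such as Klb, Mapk3 and Ppara, also fall outside it.

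The relay from the receptor gave 0 called of 12, 11 and 12 tested genes, among them Frs2, Grb2, Sos1, Ptpn11 and the ERK gene Mapk3. A less bright probe of Mapk3 was lower at the high dose (-1.52, adjusted p = 0.0266). Of 10 tested feedback and target genes, 1 rose at the low and medium doses and 3 at the high dose. Dusp6, the phosphatase that removes the activating phosphates from ERK, rose by 0.92, 0.95 and 1.03 (adjusted p = 0.000149, 7.94e-05 and 1.31e-05). With median centring in place of loess its changes were 0.78, 1.07 and 0.99 and were not called. Etv5 and Etv4 were higher at the high dose, by 0.77 and 0.62 (adjusted p = 0.0269 and 0.0146). The Etv5 call was lost without control replicate 2 or 3 or high dose replicate 1, 3 or 6 (0.66 to 0.77), and that of Etv4 without control replicate 4 or 5 or high dose replicate 1 (0.49 to 0.57). The Sprouty and Spred genes of the list were not called, but Spry4, detected on 3 arrays, could not be tested at any dose.

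The stress genes known to be regulated with Fgf21 rose in the same arrays. Of 8 genes 6 rose at the low dose and 7 at the medium and high doses, and 0 fell, with median log2 changes of 1.15, 1.24 and 1.42. Over all tested probes 1.32%, 2.68% and 3.32% were higher. Chac1, which breaks down glutathione, had control ratios of -0.45 to 0.71 (median 0.14) and high dose ratios of 1.74 to 3.39 (median 2.35). Its changes were 1.78, 1.93 and 2.37. The pseudokinase Trib3 changed by 1.56, 1.98 and 2.09, and the transcription factor CHOP (Ddit3) by 1.28, 1.56 and 1.90.

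Gdf15, a stress hormone, changed by 1.35, 1.35 and 1.40. Sesn2, an inhibitor of mTORC1, changed by 1.01, 1.13 and 1.43, and asparagine synthetase (Asns) by 0.78, 1.01 and 1.09. The low dose call of Asns was lost without control replicate 2 or 5 or low dose replicate 1 (0.63 to 0.70), and with median centring Asns and Atf4 were not called at any dose. Atf4 itself was called at the medium and high doses (0.78 and 0.79) and not at the low dose (0.30), and Ppara, which drives Fgf21 in fasting liver, was not called. Ddit3 rose further from the low to the high dose (0.62, adjusted p = 0.0146), where Fgf21 changed by -0.23. These comparisons share the control arrays with those of Fgf21, and the list was written with the Fgf21 result known.

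**Figure D5:**
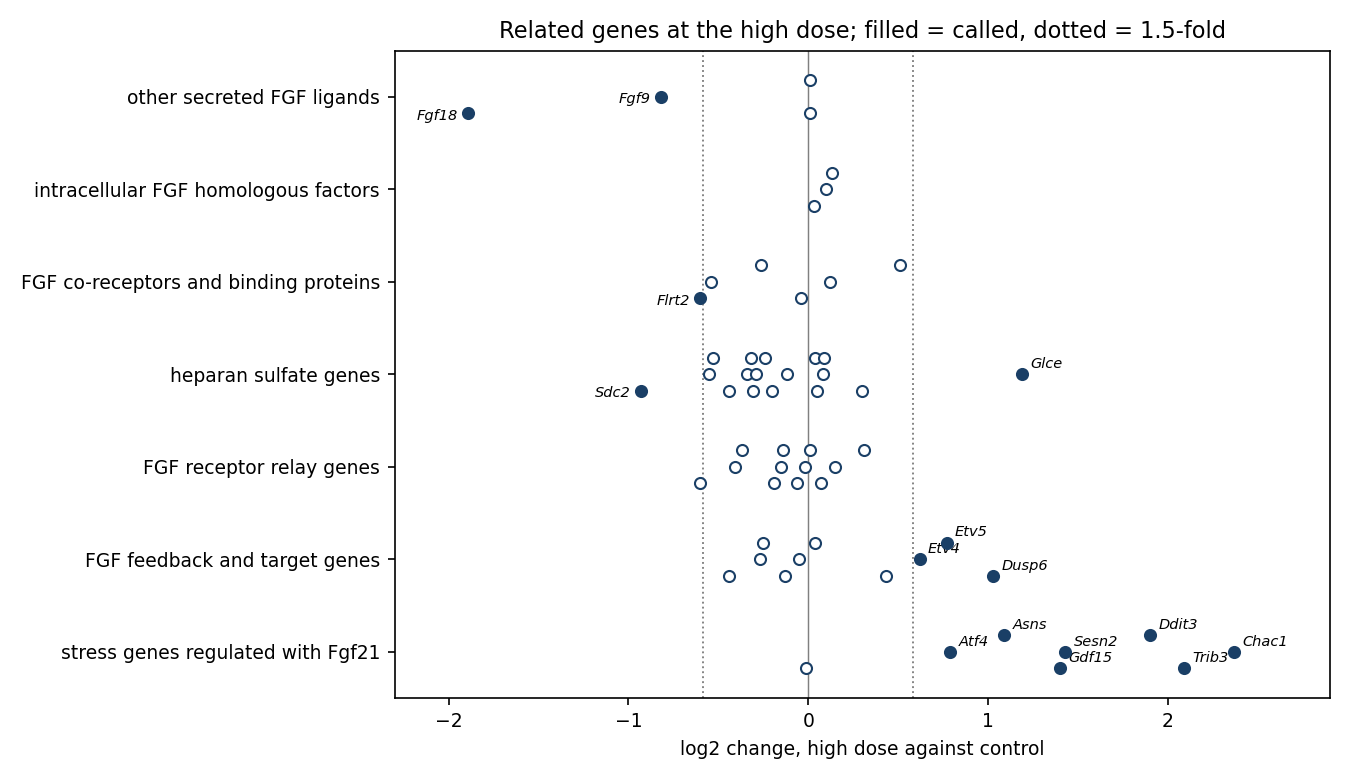
Log2 change at the high dose against control for the tested genes of 7 lists related to FGFs, each point a gene by its brightest probe. Filled points were called and are named, dotted lines mark 1.5-fold, and the vertical offset within a list only separates points. Fgf18, Fgf9, Sdc2 and Flrt2 lie to the left, and Glce, Dusp6, Etv4, Etv5 and 7 of 8 stress genes to the right.

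The genes whose pattern over the 22 arrays was most like that of Fgf21 and Fgf1 are given as a description. Slide-adjusted log ratios of 16027 probes with a gene name, detection and a value on every array were compared by Pearson correlation, and the arrays share the contrast between control and exposed cells. Among the nearest to Fgf21 were Pdlim5 (r = 0.96), the stromelysin Mmp10 (0.954), Tcim (0.947) and Fam110c (0.944). Of these, Mmp10 rose the most, by 3.07, 3.31 and 3.25, with the first dose already near the others. Nearest to Fgf1 were the complement regulator Cd55 (r = 0.951), Cyria (0.941), the phosphatase Ptpn13 (0.94), the transcription factor Cebpd (0.939) and Tmem50b (0.935). Cd55 fell by more than Fgf1, with changes of -1.85, -2.21 and -2.27.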

How the data were processed

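RNA of FE1 cells was hybridised to 22 two-colour Agilent mouse arrays, with groups and sample numbers taken from the labels. The deposited scanner files hold the median intensity of each spot in Cy5 and Cy3, as read from the scan by the authors with no normalization step. The software named per the file headers was Feature Extraction 10.7.3.1 on a G2505C scanner at 3 µm with a grid on mm9. The study's methods name another software version, scanner and resolution. A log10 ratio made by the scanner software is deposited as well (25.9% exactly 0), and the authors' series matrix holds log2 ratios of unstated normalization. Both served as alternatives. Each matrix column correlated best with its own array (lowest 0.84), in the same direction, at the log2 scale of the files, with column medians of 0.00433 to 0.0267.

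Control spots (3671) were left out, outlier spots set to missing (0.401% to 6.22% of spots per array), and log2(Cy5/Cy3) of the raw medians, with no background subtracted, was corrected array by array with loess. A dye bias of a probe cancels only in differences between groups. Spots of a probe were combined by their median. Detection required a Cy5 signal over a limit set by 308 negative control spots, their mean plus 3 SDs after trimming 5%. Intensities are not counts, so depth is given as detected probes. Names came from matching accessions to a table for GRCm38.p6 (26413 of 55681 probes), used for names and promoters only.

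The fit used limma 3.58.1 (R 4.3.3, prior degrees of freedom 5.51) with 1 model of group and slide, as in the study's methods, whose shrinkage test was replaced by limma's moderated test. Adjusted p-values are Benjamini-Hochberg values across the 55681 probes. In simulated data with 100 changed probes per size, high against control recovered 88 at a log2 change of 1 and 94 at 1.5. There were 3 false calls. The simulated noise was drawn independently for each array, so these rates do not cover arrays that share an exposure. The labels mention several exposures per dose and day without tying arrays to them. The study's methods report fewer separate exposure experiments than replicates per concentration, so the arrays of a group cannot all be separate experiments. The p-values thus measure the spread between these arrays, which may be partly technical. Sample numbers largely follow the slides. Deviations from group means, with slide left in, correlated in all 31 pairs of equal number (lowest 0.187). Most of these pairs share a slide, so the correlation over all pairs does not by itself separate number from slide. Slide 1 held replicates 1 and 2 of every group, so number and slide differ there. On slide 1, Fgfr3 was 0.72 to 1.02 in replicate 1 and 0.07 to 0.37 in replicate 2. Fgfr4 was higher in replicate 1 in the control and low dose groups only. Over all slides, 19 arrays correlated best with an array of their own number. Pairing within slide 1 was not tested on its own, and the main model holds no term for it. A replicate block in place of slide was an alternative.

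The members and lists were chosen with earlier results of these data known, so no list p-value is given. Named genes were all members by their brightest probe, the 2 largest increases and decreases at the high dose per related list, list genes called at every dose, and the 5 genes most like each called member, of which 1 is not reported here. Some further list genes were named outside this rule, as stated above. The 39 alternatives changed background correction, normalization, spots, slide terms, model, filter, fold threshold, probe choice and arrays.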

Additional observations from a re-analysis of the deposited data

Results flagged for a closer look

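Of 36 groups of arrays for the 9 genes (brightest probe), 3 held an array far from the rest of its group by Dixon's test, where chance flags about 1 in 20 groups. Fgfr1 in control replicate 5 had a log2 ratio of -2.68, with the nearest control at -2.24. Fgfr2 in low dose replicate 4 had -0.69, with the nearest low dose array at 0.22, and this spot was not well above background. Fgfr4 in high dose replicate 2 had 0.84, with the nearest high dose array at 0.15. None of these genes was called with the arrays in or left out.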

How the results depend on the processing

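Fgf21 was called at every dose under all 39 alternatives, with changes of 1.51 to 2.84, 1.43 to 2.65 and 1.35 to 2.56 at the low, medium and high dose. Fgf1 was called under 35, 38 and 39 of them, with changes of -1.13 to -0.51, -1.54 to -0.72 and -1.68 to -0.82. The number of called members stayed at 2 in every fit without a single array. It became 1 (Fgf21) at the low dose with median centring in place of loess, with only the 2 groups in the model, with a 2-fold threshold and without slide 1, and 1 at the medium dose with a 2-fold threshold. At the low dose the adjusted p of Fgf1 was 0.125 with median centring and 0.117 with only the 2 groups. Between doses 0 members were called under every alternative. Fgf7 was upward against control at every dose under all 39 alternatives and never called. At the high dose its changes were 0.28 to 0.51, under 1.5-fold, with adjusted p from 0.015 to 0.839 (limma or ordinary linear model). The lowest adjusted p was 0.0388 for Fgfr3 at the low dose and 0.0449 for Fgf2 at the high dose, also without a call. With the replicate block in place of slide, 2 members were called at each dose (Fgf21 1.78, 1.65 and 1.55, Fgf1 -0.85, -0.94 and -1.08), and no member call changed. Low dose replicate 1 and medium dose replicate 2 stood apart only after centring. Without both, 2 members were called at each dose (Fgf21 1.80, 1.65 and 1.57, Fgf1 -0.71, -0.88 and -1.03). In the same fit, list counts changed at the medium dose alone, to 1 called gene in place of 2 for the further secreted FGFs, 2 in place of 1 for feedback and target genes and 1 in place of 0 for the relay. The slide as a random block had a correlation of 0.189.

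Changes of sign occurred only in changes that were not called, 21 among the members, and the cause was not tested. With median centring they were Fgf2 (0.04) and Fgf10 (0.00) and Fgfr1 (-0.02) at the low dose and Fgfr4 (-0.13) at the medium dose. With the scanner software log ratio they were Fgf2 at the low dose (0.05) and Fgfr4 at the medium dose (-0.03). With the series matrix values they were Fgfr2 at the medium (0.01) and high dose (0.06) and Fgfr4 at the high dose (0.08). Fgf10 at the high dose became 0.00 with normexp background correction, and Fgfr3 at the high dose 0.03 with the mean of the detected probes. Fgfr4 at the medium dose became -0.12 without slide 1 and -0.06 without the 2 arrays apart. In the fits without a single array, high dose changes ran from -0.11 to 0.00 for Fgf10, -0.14 to 0.05 for Fgfr2 and -0.16 to 0.06 for Fgfr4, and the medium dose change of Fgfr4 from -0.05 to 0.13. Etv5 at the low dose, not called, became -0.03 with median centring, -0.17 without slide 1 and -0.05 without the 2 arrays apart, and ran from -0.06 to 0.37 in the fits without a single array, lowest without low dose replicate 1.

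Fgf18, Ddit3, Chac1 and Gdf15 were called at every dose under all 39 alternatives. Other calls of related genes held in fewer: Fgf9 in 24 (medium dose) and 32 (high dose), Sdc2 in 30 (medium) and 37 (high), Flrt1 in 34 (medium), Flrt2, Etv5 and Etv4 in 29, 29 and 34 (high), and Hs6st1 and Asns in 29 each (low). With the replicate block in place of slide, Fgf9 at the low dose (-0.61) and Etv5 at the medium dose (0.63) became called, and Flrt2 at the high dose (-0.54) and Hs6st1 at the low dose (-0.60) were no longer called. Median centring also ended the low dose calls of Glce (0.80), Trib3 (1.42) and Sesn2 (0.88).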
